A study of Homo sapiens with 2 samples.

Results

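The 8 genes of the CDK inhibitor family were CDKN1A, CDKN1B, CDKN1C, CDKN2A, CDKN2B, CDKN2C, CDKN2D and CDKN3, and their members on the array were taken as all probe sets whose platform annotation gives exactly 1 of these symbols. This gave 16 probe sets for 7 of the 8 genes, out of 54675 probe sets on the array and 19775 genes with a probe set of their own; CDKN2C had no probe set under this rule and was not analysed here. The cells were HCT116, an established human colorectal carcinoma line. RNA was taken 2 days after transfection, in 1 group with a control siRNA and in the other with siRNAs to JMJD1A and JMJD1B (the JMJD1A/B array below). JMJD1A and JMJD1B are now named KDM3A and KDM3B, enzymes that remove methyl groups from the H3K9 mark of histones. Each group was 1 biotin-labelled array, so every value below compares these samples and hybridizations, with neither replicate error nor test, and precision is limited by the number of arrays. The sources used here give no siRNA sequence.

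CDK inhibitors are small proteins that bind cyclin-dependent kinases (CDKs), the enzymes that drive cells through division, and hold them inactive. The CIP/KIP members, p21 (CDKN1A), p27 (CDKN1B) and p57 (CDKN1C), bind cyclin-CDK complexes of several kinds, while the INK4 members, p16 (CDKN2A), p15 (CDKN2B), p18 (CDKN2C) and p19 (CDKN2D), bind CDK4 and CDK6 and keep the D-type cyclins off them. Active CDK4, CDK6 and CDK2 phosphorylate the RB protein and its relatives, which frees the E2F factors that switch on DNA replication genes. CDKN3 differs from both families: it is a phosphatase that acts on CDKs, and its transcript is known to be most abundant late in the division cycle.

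Over all probe sets the control array had a median signal of 52.2 and the JMJD1A/B array one of 55.4. The targeted KDM3B transcript read 3031 with the control siRNA and 496 with the JMJD1A/B siRNAs, a 6.11-fold difference, and the targeted KDM3A transcript read 3884 and 3323, 85.6% of its control signal. On the 18 hybridization control probe sets, which report transcripts added to the labelled material, the JMJD1A/B array was higher, with a median log2 ratio of 0.61. With these controls set level, all log2 ratios would be smaller by 0.61, which is called the control scale below. Of 9 colon epithelial markers 8 were measured, among them EPCAM, KRT8, KRT18 and CDH1, while CDX1 lay below the signal filter. KRT19 (2.39-fold) and CDH1 (2.16-fold) were higher by 2-fold or more, and 0 of the 8 were as much lower. Of all measured genes 8.91% and 8.53% were. KRT20 read 307 with the control siRNA and 154 with the JMJD1A/B siRNAs, and CDX2 had a log2 ratio of -0.46. On the control scale 0 would be 2-fold or more higher and 2 as much lower, beside 2.15% and 27.7% of all genes. Few markers of other cell types passed the signal filter, with 2 of 6 for fibroblasts measured (summed signal 363 and 698 on the control and the JMJD1A/B array), 1 of 5 for leukocytes (48.3 and 65.5) and 1 of 3 for endothelium (116 and 158). The most changed of each type by log2 ratio were COL1A1 at 0.96, CD3E at 0.44 and PECAM1 at 0.44. The other measured fibroblast marker, DCN, stood at 0.78, with a dim signal of 39.1 on the control and 67.3 on the JMJD1A/B array. On the control scale CD3E and PECAM1 would lie below 0. Their part in the results was not tested.

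Of the 7 CDK inhibitor genes, CDKN1C, CDKN2B and CDKN1A stood at least 2-fold higher on the JMJD1A/B array, and CDKN1B, CDKN2D and CDKN3 stood higher by less than 2-fold. CDKN2A was the 1 member with a lower signal, also by less than 2-fold. Each gene is described by the probe set that had its highest mean log2 signal, and it counted as measured where that mean reached the median of all probe sets, a signal of 50.4; all 7 genes passed through their brightest probe set, and 12 of their 16 probe sets did. Thus 3 of the 7 members were higher by 2-fold or more, where 8.91% of all 12561 measured genes were, and 0 were lower by 2-fold or more, where 8.53% of all were. A log2 ratio above 0 was found for 6 of the 7 members and for 52.1% of all measured genes, and CDKN1C was the 1 member past 4-fold, where 0.971% of all were. By the mean of each gene's measured probe sets the members' counts at 2-fold were again 3 higher and 0 lower, beside 7.79% and 7.84% of all genes. The median log2 ratio of the members, JMJD1A/B minus control, was 0.75, beside 0.041 over all measured genes. On the control scale 2 of the 7 would be 2-fold or more higher and 0 as much lower, where 2.15% and 27.7% of all measured genes would be. There 5 of the 7 would lie above 0, beside 20.5% of all, and the member median would be 0.14 beside -0.57 over all genes. The scatter of a probe set, taken from differences between the 2 brightest probe sets of one gene over 6192 genes, was an SD of 0.54 on the log2 scale. It describes probes on these arrays, not the spread between cultures. In RNA from a whole culture, a different share of cells in a given phase and a different RNA amount per cell cannot be told apart.

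**Figure D1:**
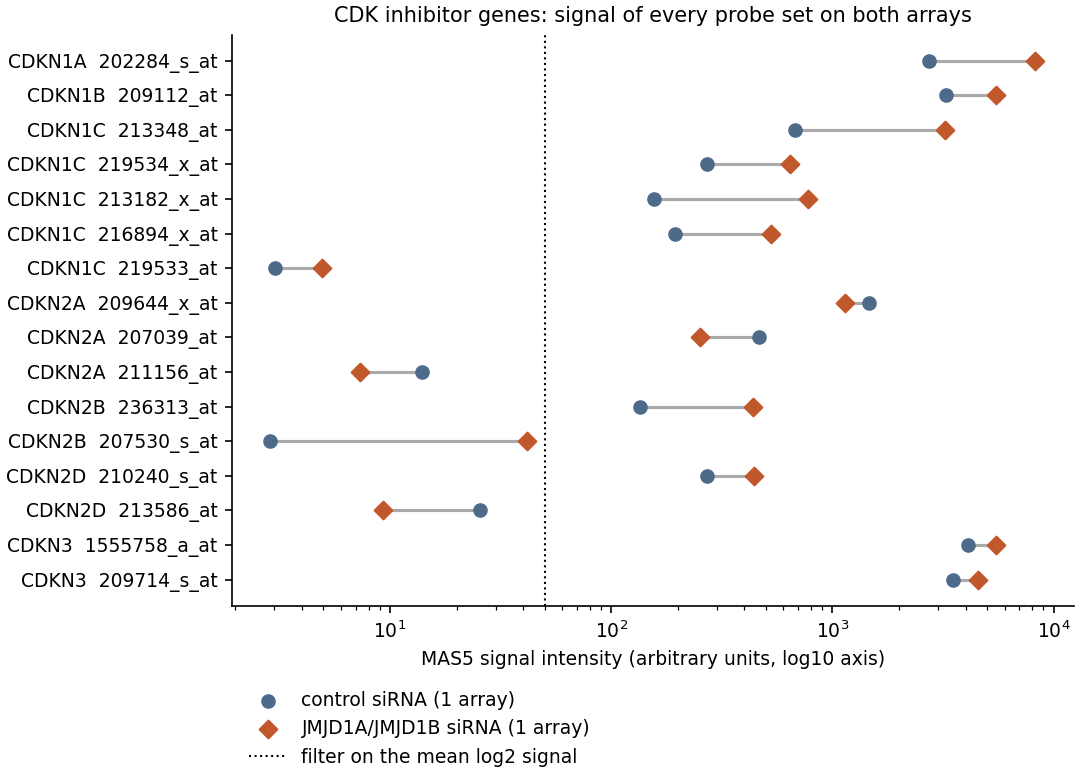
Signal of each of the 16 probe sets (rows, with gene symbol and probe set name) on a log10 axis in arbitrary units, with 1 point per array for control siRNA (circles) and JMJD1A/JMJD1B siRNA (diamonds); the dotted line marks the filter of 50.4 on the mean signal. The 12 measured probe sets lie to its right, with the diamond on the right of the circle in all except both CDKN2A probe sets.

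Among the CIP/KIP genes, CDKN1C, which encodes p57, an imprinted gene that restrains growth and accompanies differentiation, differed most. Its brightest probe set, 213348_at, read 677 with the control siRNA and 3218 with the JMJD1A/B siRNAs, 4.75-fold higher. Probe set 213182_x_at read 157 and 775, 4.95-fold higher. Probe set 216894_x_at read 195 and 525, 2.69-fold higher. So the difference had the same direction in each of these, and it was smaller in the last. Probe set 219534_x_at read 272 and 641, 2.35-fold higher. Over these 4 measured probe sets the log2 ratios ran from 1.24 to 2.31, with a mean of 1.81 and an SD of 0.55 between probe sets, close to the general scatter of 0.54. The 3 whose names end in _x_at hold probes that can match other transcripts, and probe sets of one gene are not replicates, since they share its transcript. Among 1120 genes with 4 or more measured probe sets, 16 (1.43%) had all of them at least 2-fold higher, CDKN1C being 1 of these. The fifth probe set, 219533_at, was dim on both arrays, at 3.02 and 4.92, and no fold is given for it. By their brightest probe sets, 73 of the 12561 measured genes had a higher ratio than CDKN1C. The 4 log2 ratios of CDKN1C would on the control scale run from 0.62 to 1.70, all still above 0, with 2 of them at least 2-fold.

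CDKN1A encodes p21, an inhibitor best known for stopping the division cycle after DNA damage. Its probe set 202284_s_at read 2743 with the control siRNA and 8281 with the JMJD1A/B siRNAs, which is 3.02-fold higher, a log2 ratio of 1.59 or 2.98 times the SD of a probe set. The array thus carried a bright signal for this gene in both samples, and 282 measured genes had a higher ratio. It would be 1.98-fold higher on the control scale, just under 2-fold. With 1 probe set the difference could not be set against another measure of the same transcript, and the _s_at name marks probes that can match several transcripts.

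CDKN1B encodes p27, an inhibitor of cyclin E-CDK2 whose amount is set largely by protein degradation. Its probe set 209112_at read 3276 with the control siRNA and 5497 with the JMJD1A/B siRNAs, 1.68-fold higher. The log2 ratio of 0.75 is 1.39 times the SD of a probe set, and 1946 measured genes had a higher one. It would be 0.14 on the control scale, within that SD. All 3 CIP/KIP genes were therefore higher on the deposited scale, in the order CDKN1C, CDKN1A and CDKN1B. The gap of 0.65 between the log2 ratios of CDKN1C and CDKN1A is a little larger than the SD of 1 probe set. A gap between 2 probe sets, though, carries the scatter of both. CDKN1A also lies inside the range of the CDKN1C probe sets, so the order of these is not settled by these arrays.

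Among the INK4 genes, CDKN2B and CDKN2A, which lie side by side on chromosome 9, had log2 ratios of opposite sign. CDKN2B encodes p15, known as an inhibitor that TGF-beta signalling induces. Its probe set 236313_at read 136 with the control siRNA and 437 with the JMJD1A/B siRNAs, 3.22-fold higher, a log2 ratio of 1.69 or 3.15 times the SD of a probe set. Its other probe set, 207530_s_at, read 2.88 and 41.5. Both of these values lie below the filter, so neither a direction nor a fold is given. A total of 233 measured genes had a higher ratio than CDKN2B, and on the control scale it would be 2.11-fold higher.

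CDKN2A encodes p16 and, from a different start and in another reading frame, ARF, a growth-restraining protein; which of these transcripts a probe set reports was not analysed here. Probe set 209644_x_at read 1470 with the control siRNA and 1136 with the JMJD1A/B siRNAs, 77.3% of the control signal. Probe set 207039_at read 468 and 252, a log2 ratio of -0.89. A further one, 211156_at, was below the filter at 13.9 and 7.34. The signals were thus lower on the JMJD1A/B array in both measured probe sets, neither of them by 2-fold. The brightest, at -0.37, differed by less than the SD of a probe set. On the control scale the log2 ratios of the measured probe sets would be -0.98 and -1.503.

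CDKN2D encodes p19, an INK4 member whose level is known to follow the division cycle. Its probe set 210240_s_at read 272 with the control siRNA and 444 with the JMJD1A/B siRNAs, 1.63-fold higher, while the other, 213586_at, was below the filter at 25.5 and 9.34. The log2 ratio of the measured one was 0.71, and on the control scale it would be 0.097. With 1 measured probe set, the difference could not be set against another measure of this transcript.

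CDKN3, the CDK-acting phosphatase, had bright probe sets that gave nearly the same ratio. Probe set 1555758_a_at read 4120 with the control siRNA and 5487 with the JMJD1A/B siRNAs, a log2 ratio of 0.41, and 209714_s_at read 3520 and 4558, a log2 ratio of 0.37. Both lie within the SD of a probe set, and on the control scale both would turn negative, at -0.20 and -0.24. No direction can be given for this gene.

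**Figure D2:**
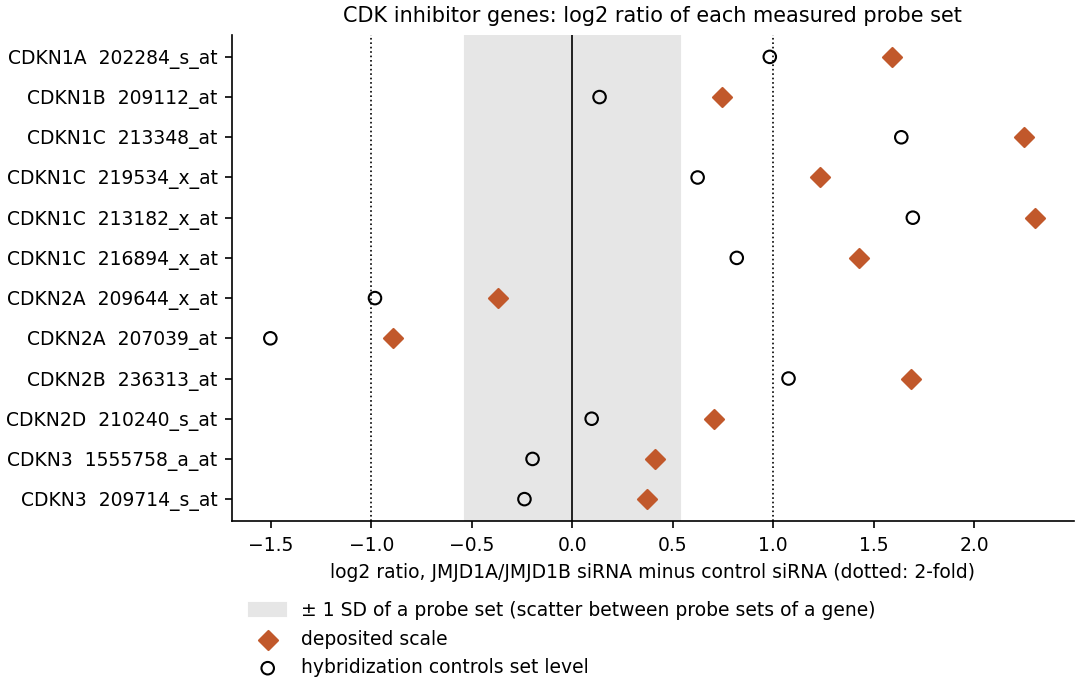
Log2 ratio (JMJD1A/JMJD1B siRNA minus control siRNA) of each of the 12 measured probe sets, on the deposited scale (diamonds) and with the hybridization controls set level (open circles); the grey band is 1 SD of a probe set (0.54) to each side of 0 and the dotted lines mark 2-fold. The 4 CDKN1C probe sets, CDKN1A and CDKN2B lie beyond the upper dotted line on the deposited scale, and CDKN3 lies inside the band on both scales.

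Of the 12 measured probe sets, 6 were 2-fold or more higher and 0 as much lower, where 8.88% and 10.4% of all 23360 measured probe sets with 1 symbol were. On the control scale 3 would be as much higher and 1, the CDKN2A probe set 207039_at, as much lower, where 2.29% and 30.4% of all would be. Of the 6 on the deposited scale, 4 belong to CDKN1C, so they stand for 3 genes. Their signals ranged from 136 to 2743 on the control array, and removing the trend of the ratio with signal by loess left CDKN1C at 2.31, CDKN2B at 1.73 and CDKN1A at 1.504 on the log2 scale. The direction of each of the 7 genes was the same under loess, quantile and median scaling; on the control scale CDKN3 turned negative.

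**Figure D3:**
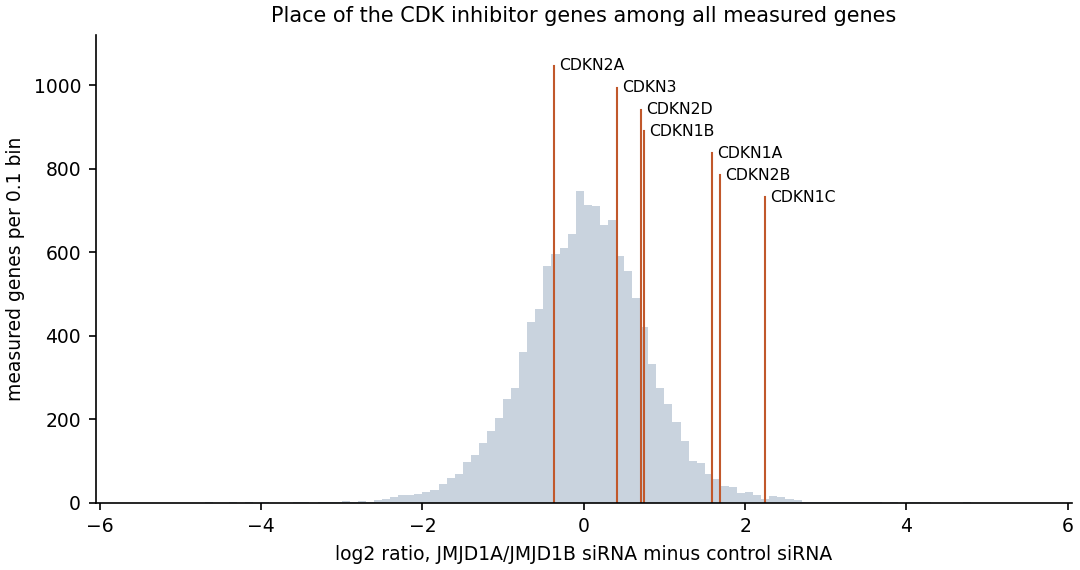
Number of measured genes in bins of 0.1 of the log2 ratio (JMJD1A/JMJD1B siRNA minus control siRNA, deposited scale), over 12561 genes, with a vertical line at the ratio of each of the 7 CDK inhibitor genes, whose heights carry no meaning. CDKN1C, CDKN2B and CDKN1A lie in the upper tail, with 73, 233 and 282 genes above them.

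Promoter sequences are shown for CDKN1A and CDKN2B, which were both over 3-fold higher and are known for GC-rich SP1 boxes close to the start, and for both starts of CDKN2A, the neighbour of CDKN2B that was lower. They come from RefSeq (GRCh38.p14), where 7 of the 8 genes matched, all except CDKN1C. Each window covers 240 bases, from 250 to 11 bases before the start, is written in the direction of transcription, and has in capitals every GGGCGG and its reverse complement. The windows are chr6:36678464-36678703 on the plus strand for CDKN1A, and on the minus strand chr9:22009316-22009555 for CDKN2B, chr9:21974868-21975107 for the start of CDKN2A nearer to its 3′ end, and chr9:21995335-21995574 for its start farther upstream.
CDKN1A: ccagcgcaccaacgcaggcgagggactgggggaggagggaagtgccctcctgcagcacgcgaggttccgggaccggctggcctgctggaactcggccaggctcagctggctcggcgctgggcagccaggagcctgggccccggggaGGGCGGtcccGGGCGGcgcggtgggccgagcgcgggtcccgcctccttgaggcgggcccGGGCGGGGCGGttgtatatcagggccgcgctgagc
CDKN2B: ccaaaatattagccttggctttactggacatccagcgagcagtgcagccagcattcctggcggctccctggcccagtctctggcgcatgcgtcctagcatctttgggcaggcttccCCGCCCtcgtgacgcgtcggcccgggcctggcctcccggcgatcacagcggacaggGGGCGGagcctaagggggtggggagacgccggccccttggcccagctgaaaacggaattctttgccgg
CDKN2A, downstream start: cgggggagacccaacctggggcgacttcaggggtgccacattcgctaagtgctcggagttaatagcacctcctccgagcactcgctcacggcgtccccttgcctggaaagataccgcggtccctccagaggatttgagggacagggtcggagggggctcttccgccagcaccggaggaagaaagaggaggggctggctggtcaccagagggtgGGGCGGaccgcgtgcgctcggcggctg
CDKN2A, upstream start: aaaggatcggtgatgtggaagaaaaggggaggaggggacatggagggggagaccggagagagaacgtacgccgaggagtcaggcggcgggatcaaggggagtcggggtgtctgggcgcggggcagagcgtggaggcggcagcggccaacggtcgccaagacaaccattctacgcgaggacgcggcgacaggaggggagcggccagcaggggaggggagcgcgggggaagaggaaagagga

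The CDKN1A window held 4 SP1 boxes, the first beginning 104 bases and the last 40 bases before the start, and the CDKN2B window held 2, of opposite orientation, beginning 134 and 78 bases before it. The downstream window of CDKN2A held 1 and the upstream window held 0. Of 35116 RefSeq windows of the same length, 41.4% held at least 1 SP1 box, 23.2% at least 2 and 6.92% at least 4. The windows of CDKN1B and CDKN2D held 1 and 2, and that of CDKN3 held 0. The E-box CACGTG, a site for MYC and related factors that 6.01% of windows hold, was found in no window of the 6 genes that were measured and matched. The core of the hypoxia response element, ACGTG or GCGTG on either strand (the former lies within the E-box too), occurred once in the windows of CDKN1A and CDKN1B and in each of CDKN2A, 3 times in CDKN2D and not in CDKN2B or CDKN3, against 41.9% of all windows with at least 1. These matches describe letters in short windows, and binding was not measured.

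Other genes lie beside the INK4 genes on chromosome 9. MTAP, a methionine salvage enzyme, had 6 measured probe sets with log2 ratios from -0.82 to 0.59, and its brightest read 4308 with the control siRNA and 6472 with the JMJD1A/B siRNAs, a ratio that would be just below 0 on the control scale. The antisense transcript CDKN2B-AS1, which overlaps CDKN2B, read 2.61 and 13.2, both below the filter. On the deposited scale no probe set of MTAP differed by 2-fold. On the control scale its probe sets 204956_at and 211364_at would be more than 2-fold lower, at -1.01 and -1.43. CDKN2B-AS1 had no measured value to compare.

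Of the kinases and cyclins that the inhibitors bind, 12 were measured. By 2-fold or more 1 of them was lower, a share near the 8.53% of all measured genes, and 0 were higher, with a median log2 ratio of -0.43 beside 0.041 over all measured genes. Of the 12, 7 would be lower by 2-fold or more on the control scale, where 27.7% of all genes would be, and the median would be -1.04. CCNE1, the cyclin E that activates CDK2, read 1976 with the control siRNA and 900 with the JMJD1A/B siRNAs, 2.20-fold lower. The D-type cyclin partners CDK4 and CDK6 had log2 ratios of -0.95 and -0.86 (the 4 CDK6 probe sets between -0.95 and -0.40). CCNE2 had -0.78, CCND1 -0.44 with a second probe set at -1.36, and CDK2 -0.37 with a second at -0.61. Others were above 0 by their brightest probe set: CDK1, the mitotic kinase, had 4 probe sets between 0.36 and 0.55. CCND2 stood at 0.42, with dim signals of 44.7 on the control and 59.7 on the JMJD1A/B array. CCNB2 stood at 0.53, with a second probe set at -0.014. The brightest probe set of each of these would lie below 0 on the control scale. RB1, the main substrate, stood at 0.055, which would be -0.56 on the control scale. Among the 13 pocket protein and E2F genes 1 was 2-fold or more higher and 1 as much lower, near the 8.91% and 8.53% of all. Their median was -0.41. On the control scale 0 would be as much higher and 7 as much lower, beside 2.15% and 27.7% of all genes. These counts rest on the brightest probe set. By the mean of measured probe sets, on the deposited scale, 0 were as much higher and 3 as much lower, beside 7.79% and 7.84% of all. The RB relative RBL1 was 2.56-fold lower, though its 3 probe sets ran from -1.35 to -0.14. TFDP2, a partner of E2F factors, was 3.02-fold higher by its brightest probe set, but its 4 probe sets ran from -0.40 to 1.59.

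Of 11 measured replication genes that E2F factors switch on, 6 were lower by 2-fold or more, where 8.53% of all measured genes were, and 0 were as much higher, with a median of -1.05. In all 9 would be lower by 2-fold or more on the control scale, where 27.7% of all genes would be. The helicase subunits MCM5 and MCM2 were 4.19-fold and 4.05-fold lower, and MCM4 and MCM3 3.29-fold and 3.25-fold. MCM7 was 2.41-fold and CDC6 2.07-fold lower. On the log2 scale CDC45 stood at -0.995 and MCM6 at -0.97, with a second MCM6 probe set at -3.18. PCNA, the polymerase clamp, stood at -0.40. The nucleotide synthesis genes TYMS and RRM2 stood at 0.11 and 0.31, though a second RRM2 probe set read -1.66. Genes expressed in G2 and mitosis, the phase in which CDKN3 is known to be abundant, numbered 13. Of these 3 were lower by 2-fold or more and 0 as much higher, beside 8.53% and 8.91% of all measured genes. The 3 were the spindle motor KIF11 (2.93-fold), the transcription factor FOXM1 (2.70-fold) and the kinase PLK1 (2.02-fold). The median of that list was -0.071. On the control scale the counts would be 6 and 0, beside 27.7% and 2.15% of all genes, with a median of -0.68. Of 10 other CDK regulators 2 were lower by 2-fold or more and 0 as much higher, again beside 8.53% and 8.91% of all. The 2 were the activating phosphatase CDC25A (2.94-fold, with its 3 probe sets between -1.73 and -1.35) and the inhibitory kinase PKMYT1 (2.02-fold). The median of the 10 was 0.31, which would be -0.30 on the control scale. There 3 would be lower by 2-fold or more, a share near the 27.7% of all genes.

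**Figure D4:**
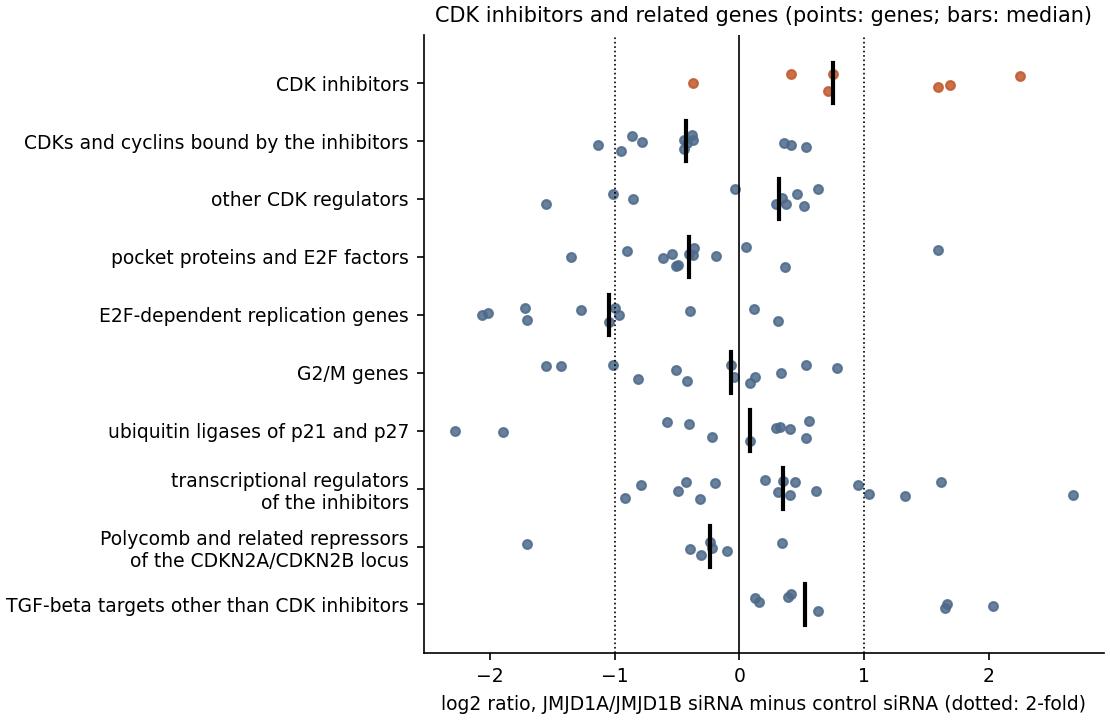
Log2 ratio (JMJD1A/JMJD1B siRNA minus control siRNA, deposited scale) of the measured genes of each list, 1 point per gene with vertical jitter, a bar at the list's median and dotted lines at 2-fold. The CDK inhibitors have a median of 0.75 and the E2F-dependent replication genes one of -1.05.

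Regulators that are known to activate the inhibitor genes included some that were higher. Of 17 measured transcriptional regulators, 4 were higher by 2-fold or more and 0 as much lower. Of all measured genes 8.91% and 8.53% were. The median of the regulators was 0.35. On the control scale 2 would be as much higher and 4 as much lower, where 2.15% and 27.7% of all genes would be. Their median there would be -0.26. KLF4, an activator of CDKN1A, read 2385 with the control siRNA and 15219 with the JMJD1A/B siRNAs, 6.38-fold higher, with its probe sets at 2.59 and 2.67 on the log2 scale. Its relative KLF6 was 3.07-fold higher, and its 5 probe sets ran from 0.93 to 1.77. SMAD3, which carries the TGF-beta signal to CDKN2B, was 2.06-fold higher, and its 3 probe sets ran from 0.76 to 2.08. FOXO4, an activator of CDKN1B, was dim on the control array and at least 2.40-fold higher against the filter, while its brighter relative FOXO1 read 368 and 195, with both probe sets below 0. MYC, which represses CDKN1A and CDKN2B, had a log2 ratio of -0.43, within the SD of a probe set, and would stand at -1.04 on the control scale.

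TGF-beta targets, a group to which CDKN2B also belongs, were counted here without CDK inhibitors. Of the 8 measured, 3 were higher by 2-fold or more and 0 as much lower, beside 8.91% and 8.53% of all genes. Their median was 0.52. SMAD7, a feedback inhibitor, was 4.09-fold higher, BHLHE40 3.14-fold, and PMEPA1, dim on the control array, at least 2.74-fold, and CDKN2B at 1.69 lies among these. By their brightest probe sets the other 5 targets had log2 ratios from 0.12 to 0.63. On the control scale the median of the TGF-beta targets would be -0.088. There SMAD7 and BHLHE40 would be past 2-fold, as 2.15% of all genes would be. PMEPA1 would stand at 1.05 there by its signals as read. Its control signal lay under the filter, so whether it would be past 2-fold is not settled.

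Of 11 measured ubiquitin ligase genes that govern the turnover of p21 and p27, 2 were lower by 2-fold or more and 0 as much higher. Of all measured genes 8.53% and 8.91% were. The median of the ligase genes was 0.087, which would be -0.52 on the control scale. There 4 would be lower by 2-fold or more, beside 27.7% of all genes. DTL, the adaptor that brings p21 to its ligase during replication, read 4400 with the control siRNA and 902 with the JMJD1A/B siRNAs, 4.88-fold lower, and a second probe set gave a log2 ratio of -1.11. CUL4A, the scaffold of the same ligase, was 3.73-fold lower in its brightest probe set, but its 4 probe sets ran from -1.90 to 2.10, so no direction can be given. SKP2, the adaptor for p27, had a log2 ratio of -0.22, with its 3 probe sets between -0.36 and 0.32. Measured genes of Polycomb, which silences the CDKN2A and CDKN2B locus in many cells, and of related factors numbered 7. The list holds 10 genes, of which only these 7 had a probe set. SUZ12 was 3.26-fold lower and the other 6 differed by less than 2-fold by their brightest probe sets. Lower and higher by 2-fold or more were 8.53% and 8.91% of all measured genes. The median of the 7 was -0.23, which would be -0.84 on the control scale. There 2 would be lower by 2-fold or more, near the 27.7% of all genes. The list includes KDM6B, a demethylase that opposes Polycomb, which stood at 0.34 by its brightest probe set. That was the lowest of its 4 measured probe sets, which ran up to 1.27. Protein amounts, and CDK activity, were not measured.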

How the data were processed

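Total RNA from HCT116 cells was measured on 1 array for each group, from 0.5 ug of RNA per the labels. The authors deposited a linear MAS5 signal intensity per probe set, per the submitters' processing notes; its version and settings are not given in the sources used here. A mean over probe sets without the outer 2% at either end came to 500.1 for each array, so each had been scaled as a whole. Both columns were matched to a sample.

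In the platform annotation 41091 probe sets other than controls had 1 gene symbol and were used, 1801 had several and 11721 had none. The gene identifiers of all 7 members analysed matched the RefSeq gene table under the same symbol. The log2 of each signal was taken without a pseudocount. Every probe set of the members was named. Of each list, up to 4 measured genes past 2-fold were named, the most changed first, or the 1 most changed gene where none was past it, together with the targeted genes, the neighbours of CDKN2B, and MYC, SKP2, CDK2, CDK4, CDK6, CCND1, CCNE1, CCNE2 and RB1. One other gene of this rule and one list are not reported here. KRT20, CDX2, DCN, CDK1, CCNB2, CCND2, MCM6, MCM7, CDC6, CDC45, PCNA, TYMS, RRM2, FOXO1 and KDM6B lie outside it and were chosen after their values were seen. Where the dimmer signal lay under 50.4 a fold was computed against that value and given as "at least". The log2 ratios of DCN, CD3E and CCND2 are given as read, though their control signals lay under it. The members and lists were chosen with earlier results of these data known. The alternatives were 4 scalings, a pseudocount of 16, 3 filters, thresholds of 1.5-fold and 3-fold, and 2 other ways to represent a gene; the second-brightest probe set was added after seeing the data. The steps were tested on simulated data. Python 3.11.15, numpy 2.4.6, pandas 2.3.3 and statsmodels 0.14.6 (loess, span 0.3) were used.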

Additional observations from a re-analysis of the deposited data

Results flagged for a closer look

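Outside the gene comparison, each of the 18 hybridization control probe sets read higher with the JMJD1A and JMJD1B siRNAs, with log2 ratios from 0.40 to 0.71 and a median of 0.61. This is a signal beyond the level of the control array in data that the comparison of CDK inhibitor genes does not use. With these controls set level CDKN3 would turn negative and CDKN1A would lie just under 2-fold.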

How the results depend on the processing

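Of 69 recomputed log2 ratios of the 7 genes, 61 moved by no more than the SD of a probe set and 8 by more. Many of the 61 could not move, so this count is no measure of stability. A changed filter keeps the same brightest probe set wherever the gene still passes. The mean equals that probe set in genes with 1 measured probe set. Leaving out _x_at and _s_at probe sets changes nothing where the brightest has neither ending. With the hybridization controls set level CDKN1C stood at 1.64, CDKN2B at 1.08, CDKN1A at 0.98, CDKN1B at 0.14, CDKN2D at 0.097, CDKN3 at -0.20 and CDKN2A at -0.98, with a median of 0.14; this follows from subtracting the shift of the controls. By the second-brightest measured probe set, which 3 genes have, CDKN1C stood at 1.24 and was the 1 gene at least 2-fold higher. At a threshold of 1.5-fold 5 genes were higher, and at 3-fold 3. The shares of all measured genes at these thresholds were not computed, so whether these counts stand out is not known. CDKN2B and CDKN2D had no value with the filter at the 75th percentile, nor CDKN1A and CDKN2D without _x_at and _s_at probe sets, which left 2 genes at least 2-fold higher in each. Under none of the alternatives was a member at least 2-fold lower. No paired analysis was possible because each group held 1 array. With 1 array a group, variation between cultures, transfections and hybridizations is not known.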
